A study of Mus musculus with 80 samples.

Results

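The genes of the DNA methylation machinery were followed in chromatin-associated RNA of mouse embryonic stem (mES) cells. They are Dnmt1 and Uhrf1, which maintain methylation, Dnmt3a, Dnmt3b and Dnmt3l, which set it de novo, Tet1, Tet2 and Tet3, which oxidise it, and Tdg, which excises oxidised bases. These 9 genes were chosen by symbol among the 22556 genes of the deposited expression tables. Chromatin-associated RNA-seq (ChrRNA-seq) sequences the RNA left with the chromatin pellet after lysis, so that reads from introns of RNA still being made are counted with those from exons.

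All cells were hybrid mES cells grown on mitomycin-treated feeder fibroblasts in serum and LIF, and all carried a doxycycline (Dox) inducible promoter at Xist on a single X chromosome. Dox for 24 h at 1 µg/ml induced Xist RNA, which silences that chromosome. In the degron lines an FKBP tag on the endogenous protein lets the small molecule dTAG-13 trigger its degradation. The tagged proteins were METTL3, the enzyme that writes m6A (clones G4 and H1, tagged at the N terminus, and C3 and H5, tagged at the C terminus), YTHDC1, a nuclear m6A reader (clones Y9F and Y12H), ZCCHC8, part of NEXT, the nuclear exosome targeting complex (clones Z4F and Z12H), and ZFC3H1 of PAXT, the poly(A) tail exosome targeting connection (clones 8H and 11A). For YTHDC1 there were 2 experiments with the same clones, of which the first shares a table with ZCCHC8 and the second has a table of its own. The inducible Xist lies on the Cast allele in the METTL3, ZFC3H1 and transgene lines and on the 129S allele in the YTHDC1 and ZCCHC8 lines. In the YTHDC1 and ZCCHC8 lines this Xist also carries an inserted array of Bgl stem-loops. In ZFC3H1 clone 11A only a part of the X chromosome is informative for alleles. The transgene lines derive from METTL3 degron clone H5, with GFP-METTL3 expressed at Rosa26, either wild type (WT) or with the catalytic substitution D395A. The 4 transgene lines are 1 clone each, with both X chromosomes (XX) or with only the inducible X (XiO), and each was sequenced in 2 experiments. The sample titles mark the second set of the transgene and YTHDC1 libraries only as Rep2, which is called the second experiment here. Wells of each biological replicate came from a single batch of cells, as the study's reporting summary states. Every line was sequenced untreated, with dTAG alone (26 h by the sample titles, which are followed here, but 2 h by the treatment field), with Dox, and with dTAG from 2 h before Dox until its end at 24 h, which gave 36 groups and 80 libraries. The untreated libraries still carried the tag, so no group was untagged.

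The libraries held 8.58 to 34.4 M reads (megareads), with a median of 22.5 M, and a single read was worth 0.0291 to 0.117 CPM (counts scaled to library size). Xist changed with Dox by 3.74 to 10.34 on the log2 scale in the 9 lines and passed the test in all but WT XX (3.99), where it passed once the experiment was a block in the fit (adjusted p = 3.42e-13, limma). dTAG acts on protein, so transcript levels of the tagged genes do not test the depletion. Of the stem cell markers Esrrb, Zfp42, Tfcp2l1, Pou5f1, Nanog, Klf4 and Dppa5a were read in every library, with a summed level of 788 to 2247 CPM over the list. Sox2 was listed at 0 throughout, and its span lies within that of Sox2ot on the same strand. The summed level of 10 feeder markers was 393 to 2209 CPM, nearly all of it Fn1 (382 to 2193 CPM), while Col1a1, Col1a2 and Col3a1 reached at most 5.00 CPM and Lum had a median of 0. In bulk RNA, fewer cells of a kind and less RNA per cell cannot be told apart.

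DNA methylation in mammals is carried by cytosines in CG pairs. UHRF1 binds CG pairs that replication left methylated on only the parental strand and brings in DNMT1, which methylates the new strand. DNMT3A and DNMT3B write new methylation, and DNMT3L, which has no catalytic activity of its own, stimulates them. TET enzymes oxidise methylated cytosine stepwise, and TDG cuts out the most oxidised forms for replacement by base excision repair. In mES cells DNMT3B, DNMT3L, TET1 and TET2 are the well known members, whereas TET3 is better known from the oocyte and from later differentiation.

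On mm10, in coordinates counted from 1, Dnmt1 lies at chr9:20907206-20952979 on the minus strand and Uhrf1 at chr17:56303337-56323486 on the plus strand. Dnmt3a lies at chr12:3806980-3914443, Dnmt3b at chr2:153649449-153687730 and Dnmt3l at chr10:78042287-78063622, all on the plus strand. Tet1 lies at chr10:62804570-62880014, Tet2 at chr3:133463677-133544390 and Tet3 at chr6:83362374-83441678, all on the minus strand. Tdg lies at chr10:82629838-82650494 on the plus strand. These spans are those listed for the genes, exons and introns together, and none of them is X-linked. For Dnmt1 the counted length, 52684 bases, is longer than the listed span of 45774 bases.

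The sequences shown here are the 250 bases before the start of Tet2, Uhrf1, Dnmt3b and Dnmt3l, the members with a called change in both YTHDC1 experiments and in ZCCHC8 described further on. The starts are those listed in the expression tables. They are printed 5′ to 3′ on the strand of the gene, from RefSeq on GRCm38.p6. Each CG pair, at which the pathway of these genes acts, is in capitals. The regions are chr3:133544391-133544640 for Tet2 (minus strand), chr17:56303087-56303336 for Uhrf1, chr2:153649199-153649448 for Dnmt3b and chr10:78042037-78042286 for Dnmt3l (all plus strand).

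Tet2: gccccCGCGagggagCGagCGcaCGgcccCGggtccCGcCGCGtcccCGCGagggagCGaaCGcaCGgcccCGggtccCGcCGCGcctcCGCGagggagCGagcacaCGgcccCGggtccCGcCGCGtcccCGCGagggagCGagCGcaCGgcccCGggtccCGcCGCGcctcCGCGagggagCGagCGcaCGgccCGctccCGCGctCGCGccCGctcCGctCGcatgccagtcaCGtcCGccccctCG

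Uhrf1: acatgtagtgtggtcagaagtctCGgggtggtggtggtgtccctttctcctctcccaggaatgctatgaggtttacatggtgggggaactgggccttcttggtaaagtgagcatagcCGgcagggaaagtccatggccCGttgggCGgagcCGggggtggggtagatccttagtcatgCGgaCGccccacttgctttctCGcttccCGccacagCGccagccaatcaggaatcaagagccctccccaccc

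Dnmt3b: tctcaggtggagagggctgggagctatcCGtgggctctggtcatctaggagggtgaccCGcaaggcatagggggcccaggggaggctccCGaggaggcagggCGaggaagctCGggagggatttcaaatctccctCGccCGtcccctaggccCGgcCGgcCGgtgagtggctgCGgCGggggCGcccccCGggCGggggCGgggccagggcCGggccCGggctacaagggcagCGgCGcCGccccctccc

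Dnmt3l: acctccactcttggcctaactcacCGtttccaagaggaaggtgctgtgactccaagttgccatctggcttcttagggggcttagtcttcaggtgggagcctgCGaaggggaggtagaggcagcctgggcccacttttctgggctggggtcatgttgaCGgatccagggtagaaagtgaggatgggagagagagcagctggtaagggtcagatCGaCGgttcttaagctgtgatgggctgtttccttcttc

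CG reads the same on both strands, and 92.1% of the 32851 RefSeq regions of this length hold at least 1 of it, with a median of 6. The Tet2 region holds 51 CG, and 99.93% of all regions hold fewer. The Dnmt3b region holds 21, with fewer in 83.65% of regions, the Uhrf1 region holds 10, with fewer in 62.2%, and the Dnmt3l region holds 5, with fewer in 44.42%. Uhrf1 has a further RefSeq start inside the listed span, and the region before that one holds 30 CG. Dnmt3l has a pair of further starts inside its span, with 4 and 3 CG in the regions before them. These counts describe the letters only and say nothing of methylation, which was not measured.

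Levels between genes are compared as CPM per kb of counted length. In the 20 untreated libraries Tet1 had the highest level, with a median of 13.8 CPM per kb (11.0 to 24.1), and its lowest library lay above the highest of every other member. Uhrf1 (median 4.70, 2.13 to 5.65), Tet2 (4.34, 1.88 to 6.33), Dnmt1 (4.19, 1.67 to 5.03) and Dnmt3b (3.98, 2.43 to 9.60) followed in an order that their ranges do not separate. Dnmt3l, the stimulating cofactor, had a median of 1.97 CPM per kb (0.935 to 3.04), overlapping the ranges above it. Dnmt3a (0.529, 0.230 to 0.928) and Tet3 (0.381, 0.183 to 0.925) overlapped each other and lay below every Dnmt3l library. The tables were normalised separately, so levels across lines are set side by side without a test.

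**Figure D1:**
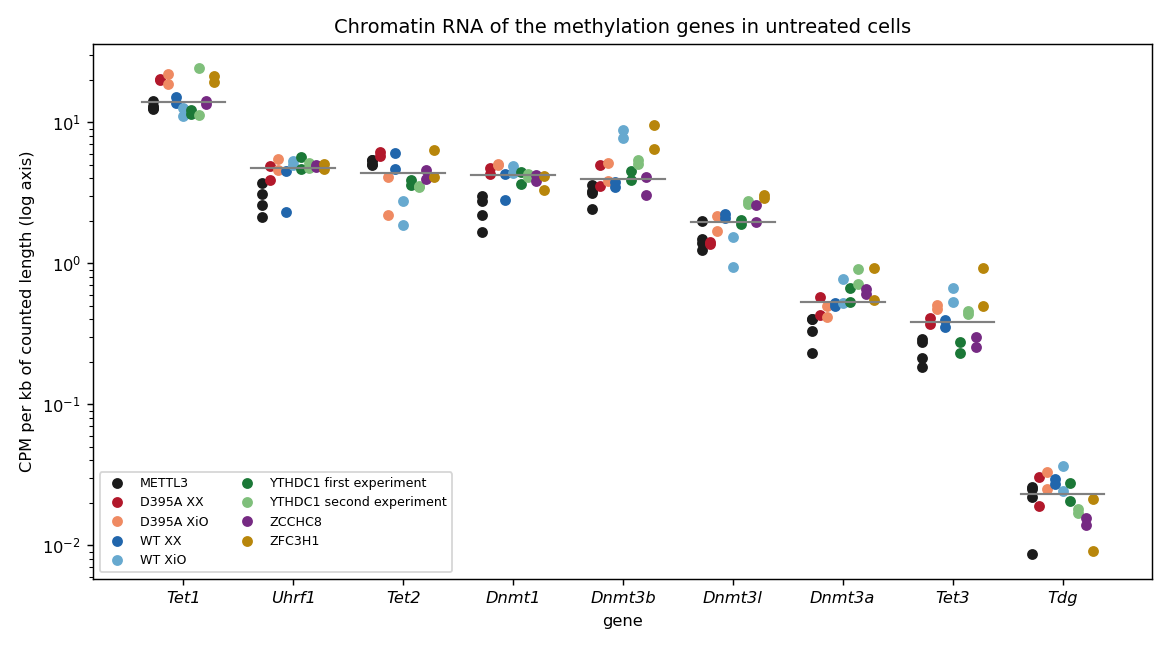
Level of the 9 members in the 20 untreated libraries, in CPM per kb of counted length on a log axis. Each point is a library, coloured by line, and the grey line is the median, which runs from 13.8 for Tet1 down to 0.0232 for Tdg.

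Tdg, the glycosylase of the pathway, was the lowest member, with a median of 0.0232 CPM per kb in untreated libraries (0.00861 to 0.0366). Over all 80 libraries it had 0.0512 to 0.772 CPM (median 0.392), below the mean of 1 CPM needed for testing, so 8 of the 9 members were tested in every table. The gene model Gm9855 (chr10:82629842-82650277, plus strand) covers 98.9% of the listed Tdg span and leaves 221 bases outside it, and Gm9855 itself was at 0 in every library. Among all genes, 440 (1.95%) lie to at least 95% under another gene of the same strand, and 439 of these (99.8%) had a median under 1 CPM, against 40.7% of all genes. Reads over a shared span cannot be told apart between both models, and Tdg is left out of what follows.

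Within a line, the members differed in how they moved together. Over the 80 libraries, after the mean of each clone (or transgene line) was subtracted from log2(CPM + 1), Dnmt1 and Uhrf1 had the highest correlation of all member pairs, r = 0.907, and r = 0.871 after scaling by the median ratio of all genes. Dnmt3a correlated with Uhrf1 at 0.581 (0.371 after that scaling) and with Tet3 at 0.560 (0.348). Tet2 had no correlation above 0.230 with any member (Uhrf1, 0.239 after scaling). It was at 0.138 with Dnmt1 and 0.037 with Tet1 (0.195 and 0.203 after scaling), and at -0.121 with Dnmt3b and -0.124 with Tet3 (0.044 and -0.035). With Dnmt3l it was at -0.254 and with Dnmt3a at -0.223 (-0.125 and -0.353 after scaling). These libraries share clones, depth and normalisation, so the correlations are descriptions.

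Of 9326 autosomal genes compared in the same way, those most like Dnmt1 were Timeless (r = 0.938), Bag6 (0.937) and Slc38a10 (0.936), and those most like Uhrf1 were Mybl2 (0.926), Pcyt2 (0.916) and Tyro3 (0.915). Timeless encodes a replication fork protein and Mybl2 a cell cycle transcription factor. For Dnmt3a they were Clip2 (0.906), Map1a (0.898) and Spire2 (0.893), for Dnmt3b Esrp1 (0.651), Ears2 (0.615) and Slc44a2 (0.612), and for Dnmt3l Icosl (0.723), Surf6 (0.717) and Epha2 (0.711). Among the TET genes they were Prpf8 (0.722), Actn4 (0.714) and Iqgap1 (0.712) for Tet1, Il6st (0.798), Zbtb20 (0.793) and Dclk2 (0.789) for Tet2, and St5 (0.785), Col4a2 (0.776) and Phldb1 (0.771) for Tet3. Il6st encodes the shared receptor subunit gp130, through which LIF signals. After median-ratio scaling, 13 of these 24 genes were still among the 3 most alike.

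Each depletion was tested with limma on log2(CPM + 1), without Dox (dTAG against untreated) and with Dox (dTAG and Dox against Dox), and a change was called at a Benjamini-Hochberg adjusted p under 0.05 over all genes of the table. The dTAG and Dox comparisons without a second agent share the untreated libraries. Acute depletion of YTHDC1 lowered Uhrf1 and Tet2 with and without Dox in both experiments. Acute depletion of ZCCHC8 lowered Dnmt1, Uhrf1, Tet1 and Tet2 in both settings, and with Dox it also raised all 3 DNMT3 genes. No member was called with dTAG on ZFC3H1 depletion or in the WT transgene lines. In the D395A transgene lines the call was limited to Tet2 in XX without Dox when experiments were not blocked. With the experiment as a block, Tet2 fell and Dnmt3a and Tet3 rose in D395A XX and in D395A XiO, with and without Dox.

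Without Dox, 3 of the 8 tested members were called in the first YTHDC1 experiment, where 19% of all genes were called, and 3 of 8 in the second, where 17.8% were. With Dox the members called were 2 of 8 and 2 of 8, against 15.5% and 14.7% of all genes. On ZCCHC8 depletion 4 of 8 members were called without Dox and 7 of 8 with Dox, where 36.1% and 40.4% of all genes were called. The clone was a block in these fits, and without it 1 and 0 of the 3 calls of each YTHDC1 experiment without Dox were left, 0 of 2 in each with Dox, and on ZCCHC8 depletion 2 of 4 without Dox and 1 of 7 with Dox. Of all calls on ZCCHC8 depletion, 55.2% were higher without Dox and 62.3% with Dox, and 45.2% and 39.4% after median-ratio scaling, which turned no member's direction. For YTHDC1 with Dox in the first experiment this share was 63.3%, and 52.5% after that scaling.

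**Figure D2:**
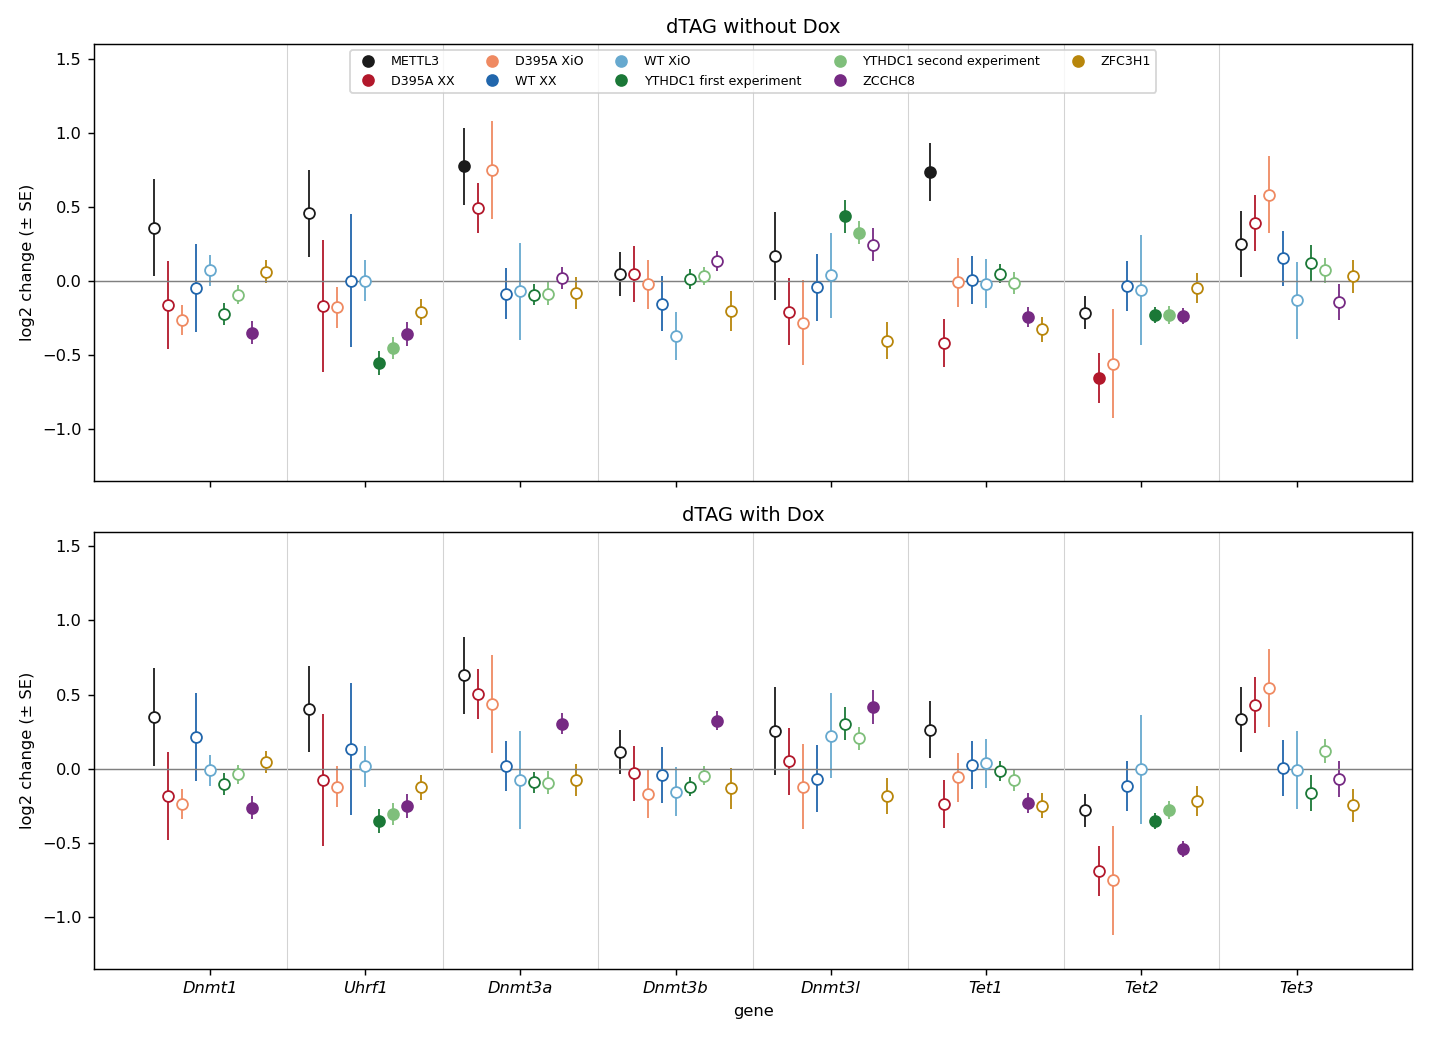
Log2 change of the 8 tested members with dTAG, without Dox (top) and with Dox (bottom), for each line. Filled points passed an adjusted p of 0.05 in limma, with the clone as a block in the degron lines and no block in the transgene lines, open points did not, and bars are the standard error. Uhrf1 and Tet2 lie below 0 in both YTHDC1 experiments and in ZCCHC8 in both panels.

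The maintenance genes came first among the members that fell. In the first YTHDC1 experiment Uhrf1 stood at 113.9 CPM in Y9F and 94.67 in Y12H when untreated and at 70.25 and 70.8 with dTAG. In the second it stood at 104.1 and 94.87 untreated and at 69.28 and 75.67 with dTAG. The groups did not overlap in either experiment, and both clones fell. Groups of so few libraries can also separate by chance, and the share of all genes that did so is not given. Here and below, a lack of overlap is therefore a description and not a test. The log2 change was -0.55 (SE 0.08, adjusted p = 0.000195, limma) in the first and -0.45 (SE 0.07, adjusted p = 0.000288, limma) in the second.

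With Dox, Uhrf1 fell in the first experiment from 111.7 and 119.8 CPM to 93.12 and 87.89 (log2 change -0.35, adjusted p = 0.00742, limma), and in the second from 94.61 and 97.28 to 81.88 and 73.39 (-0.30, adjusted p = 0.00908, limma). In the first experiment the call without Dox was lost without Y9F (-0.41, adjusted p = 0.0534) and that with Dox without Y12H (-0.26, adjusted p = 0.216). The second experiment has no test with a clone left out, and the 4 log2 changes of Uhrf1 then lay between -0.21 and -0.58. Dnmt1, the enzyme that UHRF1 recruits, was at 232.5 and 192.6 CPM untreated and 181 and 181.8 with dTAG in the first experiment, with a log2 change of -0.22 that did not pass (adjusted p = 0.0548), and at -0.09 in the second (adjusted p = 0.339).

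On ZCCHC8 depletion both maintenance genes fell. Dnmt1 stood at 222 CPM in Z4F and 202.4 in Z12H untreated and at 182.8 and 151.1 with dTAG, a log2 change of -0.35 (SE 0.08, adjusted p = 0.00226). Uhrf1 went from 96.7 and 99.75 to 80.36 and 72.73, a log2 change of -0.36 (adjusted p = 0.00264). With Dox, Dnmt1 went from 244.5 and 202.1 to 183.6 and 186.5 (-0.26, adjusted p = 0.012) and Uhrf1 from 126.9 and 107.8 to 98.17 and 98.2 (-0.25, adjusted p = 0.0206). The groups did not overlap in any of these 4 comparisons, which for groups this small is a description only. Leaving out Z12H ended the calls without Dox for Dnmt1 (-0.28, adjusted p = 0.0634) and Uhrf1 (-0.26, adjusted p = 0.103), and leaving out Z4F ended those with Dox (-0.12 and -0.13, adjusted p = 0.402 and 0.378). With Dox and without Z12H, Dnmt1 was at -0.41 (adjusted p = 0.0106).

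**Figure D3:**
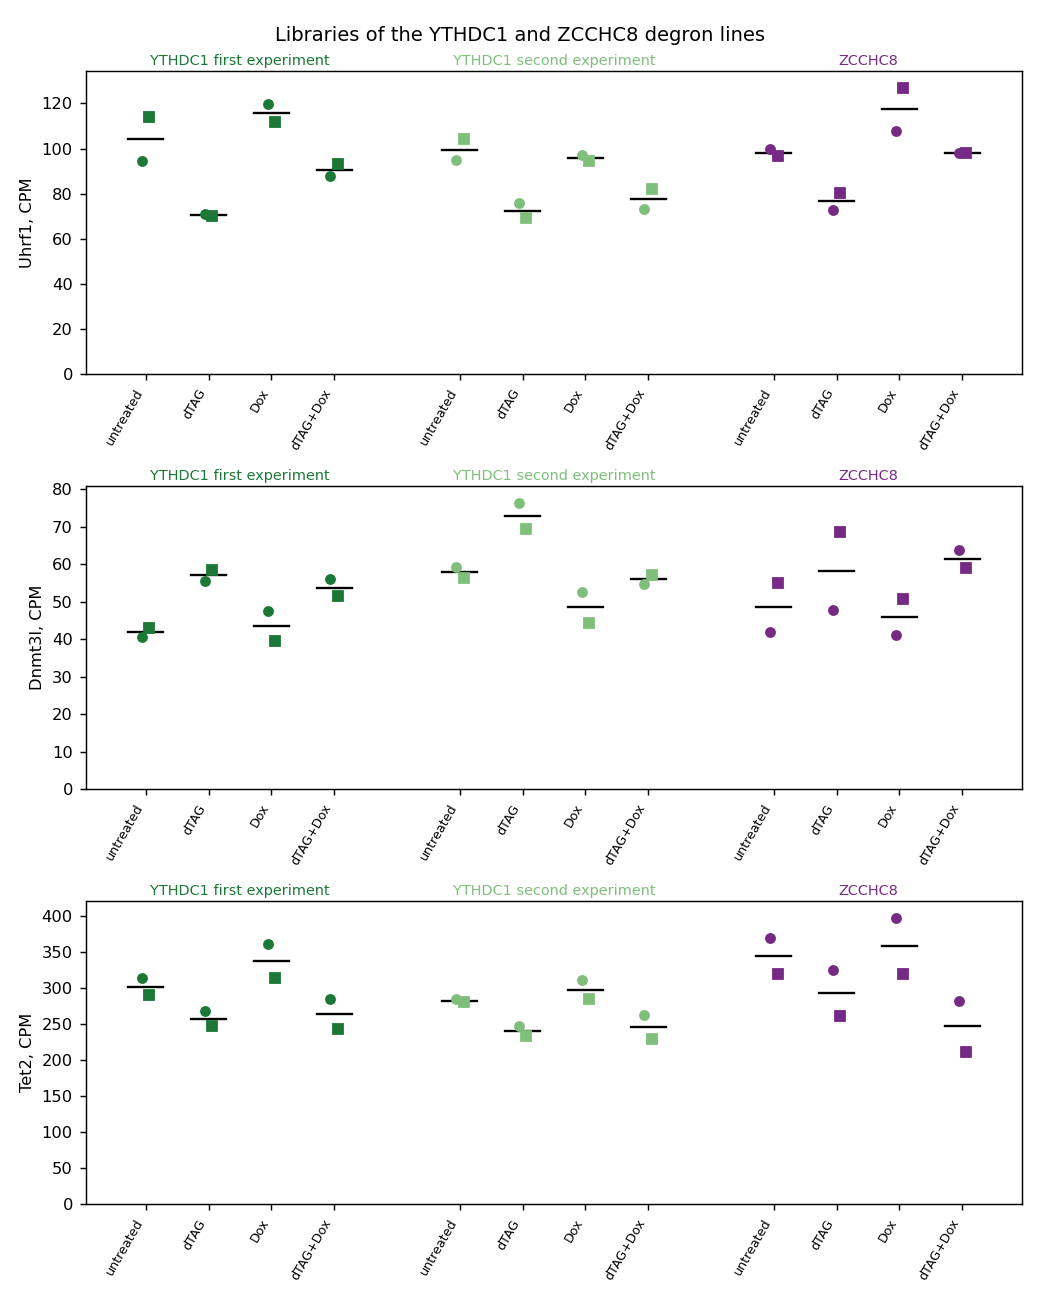
CPM of Uhrf1, Dnmt3l and Tet2 in each library of the YTHDC1 and ZCCHC8 lines by treatment. Circles are clones Y12H and Z12H, squares Y9F and Z4F, and bars the mean. Uhrf1 without Dox lies between 69.28 and 80.36 with dTAG and between 94.67 and 113.9 untreated.

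Tet2, the TET gene that fell most widely, did so in every comparison of these lines. In the first YTHDC1 experiment it stood at 290.2 CPM in Y9F and 313.9 in Y12H untreated and at 247.5 and 268.1 with dTAG (log2 change -0.23, SE 0.05, adjusted p = 0.00761). In the second it went from 280.5 and 284.4 to 234.4 and 247.8 (-0.23, adjusted p = 0.0127). With Dox the values were 313.6 and 361.6 against 243.1 and 284.8 in the first (-0.35, adjusted p = 0.000368) and 284.8 and 311.4 against 229.9 and 262.5 in the second (-0.28, adjusted p = 0.00397). Both clones were lower with dTAG each time, without overlap of the groups. In the first experiment the call without Dox was lost when either clone was left out (-0.23 both times, adjusted p = 0.174 without Y9F and 0.107 without Y12H), and that with Dox was kept (-0.34 and -0.37).

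On ZCCHC8 depletion Tet2 went from 319.6 CPM in Z4F and 369.4 in Z12H to 261.5 and 324.7 (-0.24, adjusted p = 0.00283), where the groups overlapped although both clones fell. With Dox it went from 320.4 and 397.4 to 211.9 and 282.4, a log2 change of -0.54 (SE 0.05, adjusted p = 8.76e-07), which was the largest change called for any member on ZCCHC8 depletion and was kept without either clone (-0.49 and -0.59). Without Dox the call was lost without Z4F (-0.19, adjusted p = 0.0855). The difference between both settings, -0.31, did not pass (adjusted p = 0.143), and after median-ratio scaling it did (-0.38, adjusted p = 0.0306). Here 33 genes (0.238%) were called for such a difference.

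Tet1, the TET gene with the highest level here, fell on ZCCHC8 depletion and was not called on YTHDC1 depletion (0.05 and -0.02 in the first experiment, -0.01 and -0.08 in the second). In ZCCHC8 it stood at 1059 CPM in Z4F and 1011 in Z12H untreated and at 940.6 and 813.9 with dTAG (-0.24, adjusted p = 0.00945). With Dox it went from 1181 and 1057 to 933.3 and 969.6 (-0.23, adjusted p = 0.0104). Neither pair of groups overlapped. The call without Dox was lost without Z12H (-0.17, adjusted p = 0.184) and that with Dox without Z4F (-0.12, adjusted p = 0.301).

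Among the de novo genes, Dnmt3l moved opposite to Uhrf1 on YTHDC1 depletion. It stood at 42.93 CPM in Y9F and 40.72 in Y12H untreated and at 58.46 and 55.57 with dTAG (log2 change 0.44, SE 0.11, adjusted p = 0.0124) in the first experiment. In the second it went from 56.32 and 59.29 to 69.33 and 76.33 (0.33, adjusted p = 0.00589). The groups did not overlap in either. The call of the first experiment was lost when either clone was left out, with the log2 change at 0.44 each time (adjusted p = 0.169 without Y9F and 0.107 without Y12H). With Dox the change was 0.30 in the first (adjusted p = 0.0789) and 0.21 in the second (adjusted p = 0.0814), neither of which passed.

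On ZCCHC8 depletion without Dox, Dnmt3a, Dnmt3b and Dnmt3l had log2 changes of 0.02, 0.14 and 0.25, none of which passed. With Dox all 3 rose. Dnmt3b went from 221.7 CPM in Z4F and 155.2 in Z12H to 264.4 and 204.7 (0.32, adjusted p = 0.000958), and its groups overlapped because the clones differ in level. Dnmt3a went from 81.32 and 66.17 to 95.78 and 86.03 (0.30, adjusted p = 0.00336), and Dnmt3l from 50.83 and 41.07 to 58.95 and 63.78 (0.42, adjusted p = 0.0076), both without overlap. Leaving out Z12H ended all 3 calls, at 0.25 for Dnmt3b (adjusted p = 0.0776), 0.23 for Dnmt3a (adjusted p = 0.124) and 0.21 for Dnmt3l (adjusted p = 0.225). In the change with Dox minus that without Dox none of these genes passed (0.19, 0.28 and 0.17).

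The summed level of 8 markers of cells leaving the stem cell state moved with ZCCHC8 depletion, at 59.5 to 70.8 CPM with dTAG against 39.6 to 52.3 untreated, and at 52.6 to 63.7 with dTAG and Dox against 36.3 to 47.0 with Dox. Of the 5 tested, 2 rose without Dox and 3 with Dox, and Sox1 was at 0. The stem cell list was at 2080 to 2161 CPM with dTAG against 2094 to 2114 untreated, and at 1778 to 2168 with dTAG and Dox against 2068 to 2158 with Dox. Of its 7 tested genes 1 fell without Dox and 3 fell with Dox, with medians of -0.04 and -0.12, and none rose. The feeder list, nearly all of it Fn1, was at 570 to 623 against 635 to 661 without Dox and at 586 to 680 against 698 to 827 with Dox. Of its 4 tested genes 1 rose and 0 fell without Dox, with a median of 0.04. In YTHDC1 the stem cell list stood at 1641 to 1851 CPM with dTAG against 1869 to 1972 untreated in the first experiment and overlapped in the second, while the list for cells leaving that state overlapped in both. Their part in the changes of the members was not tested.

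ZCCHC8 and the first YTHDC1 experiment share a table, so their changes could be compared directly. Without Dox 1 of 8 members differed, against 25.1% of all genes, and with Dox 2 of 8, against 29.6%. The change of Tet1 without Dox was lower in ZCCHC8 by a log2 difference of -0.29 (SE 0.09, adjusted p = 0.03). With Dox the change of Dnmt3a was higher in ZCCHC8 by 0.40 (adjusted p = 0.00835) and that of Dnmt3b by 0.45 (SE 0.09, adjusted p = 0.00184). The difference in Dnmt3b kept its call whichever clone was left out, at 0.37 to 0.52. For Tet1 the call was lost without Y12H (-0.18, adjusted p = 0.259) or Z12H (-0.22, adjusted p = 0.175), and for Dnmt3a without Y12H (0.38, adjusted p = 0.0502) or Z12H (0.33, adjusted p = 0.0931). The changes of Uhrf1 differed by 0.19 without Dox and 0.10 with Dox and those of Tet2 by -0.01 and -0.19, none past the threshold. Without the clone as a block none of the 3 differences was called.

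METTL3 depletion shifted the scale of the whole table, and its values for the members have to be read against that. The median log2 change of all genes was 0.21 without Dox and 0.23 with Dox, and the share of calls that were higher went from 72.7% to 36.6% without Dox and from 81.6% to 38.1% with Dox after median-ratio scaling. In D395A XX that median was 0.12 and 0.06, and the share went from 80.8% to 46.2% and from 77.0% to 57.1%. In D395A XiO it was 0.12 and 0.11, with the share at 85.2% and 50.0% without Dox and, over few genes, 100% and 46.7% with Dox.

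Without Dox, 2 of 8 members were called on METTL3 depletion, against 23.3% of all genes. In G4, H1, C3 and H5, in this order, Tet1 stood at 951.6, 987.8, 1064 and 938.3 CPM untreated and at 2467, 2046, 1107 and 1294 with dTAG (log2 change 0.74, SE 0.19, adjusted p = 0.0183, limma). Dnmt3a, a de novo enzyme, stood at 42.95, 24.75, 35.47 and 43.18 untreated and at 92.18, 59.29, 42.42 and 62.95 with dTAG (0.77, SE 0.26, adjusted p = 0.0475, limma). Tet1 was higher with dTAG in all 4 clones without overlap of the groups, but by far more in G4 and H1 than in C3 and H5. Dnmt3a was higher in all 4 clones, and its groups overlapped. After median-ratio scaling the changes were 0.48 (adjusted p = 0.126) for Tet1 and 0.52 (adjusted p = 0.0802) for Dnmt3a, neither called. By edgeR on the recovered reads they were 0.51 and 0.58, neither called. Both calls were also lost without G4 (0.52 for Tet1 and 0.67 for Dnmt3a), without H1 (0.63 and 0.62), without H5 (0.83 and 0.85) and without the clone as a block.

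The untreated libraries of G4 and H1 stood apart from the other libraries of the same clones. Tet1 was at 951.6 and 987.8 CPM there, and at 1773 to 2467 CPM in their 6 treated libraries, Dox alone included. In C3 and H5 it was at 882.4 to 1319 CPM in all 8 libraries. Dnmt1 in H1 likewise stood at 87.81 CPM untreated and at 242.3, 284.1 and 249.2 with dTAG, Dox and both. Uhrf1 in H1 stood at 42.97 untreated against 107.7, 114.4 and 117. In C3 and H5 the Dox libraries were the low ones, with Dnmt1 at 66.55 and 83.69 CPM and Uhrf1 at 34.77 and 38.93, against 90.57 to 165.7 and 47.6 to 87.96 in their other libraries. The share of reads in genes under 3 kb, a measure of library composition, varied over these 16 libraries from 0.497% (C3 with Dox) to 4.57% (C3 with dTAG and Dox). With this share as a covariate both calls were kept, and its part in the levels was not tested.

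With Dox, 0 of 8 members were called by limma on METTL3 depletion, against 10.5% of all genes, with 2 of 8 at an unadjusted p under 0.05 and 0 by edgeR. In the same order of clones Tet2 was at 411.6, 399.6, 453.7 and 480.3 CPM with Dox and at 395.4, 365.3, 325.1 and 349.4 with dTAG and Dox. All 4 clones were lower and the groups did not overlap, and the log2 change was -0.28 (adjusted p = 0.107), or -0.56 after median-ratio scaling (adjusted p = 0.0645). Without Dox the change of Tet2 was -0.21 (adjusted p = 0.162), or -0.47 after that scaling (adjusted p = 0.0661), with G4 higher with dTAG (464.4 against 438.3 CPM) and the other clones lower. Before scaling, Tet2 was in both settings the single member with a negative change, in a table where most genes had a positive one. Median-ratio scaling took the median of all genes from 0.21 and 0.23 to -0.02 and -0.02. The sign of a member with a small change can thus rest on the scaling.

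The transgene lines ask whether GFP-METTL3 alters the response when the endogenous METTL3 is depleted. In D395A XX, Tet2 stood at 462.1 CPM in experiment 1 and 493.5 in experiment 2 untreated and at 323.3 and 285 with dTAG. With Dox it stood at 443.2 and 475.9 without and at 292.6 and 276.8 with dTAG. The groups were far apart in both settings. The log2 change was -0.65 (SE 0.17, adjusted p = 0.045) without Dox, which passed, and -0.69 (SE 0.17, adjusted p = 0.0515) with Dox, which did not, and after median-ratio scaling -0.81 (adjusted p = 0.0122) and -0.78 (adjusted p = 0.02). Thus 1 of 8 members was called without Dox, against 6.01% of all genes, and 0 of 8 with Dox, against 3.19%, where 3 of 8 had an unadjusted p under 0.05 and edgeR called 1. With a single experiment left the call without Dox was lost (-0.79 and -0.51, adjusted p = 0.574 and 0.877).

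With the experiment as a block, Tet2 in D395A XX passed in both settings (SE 0.07, adjusted p = 7.40e-06 without Dox and 6.79e-06 with Dox, limma). In that fit 4 of 8 members were called without Dox, against 37.5% of all genes, and 4 of 8 with Dox, against 29.3%. Dnmt3a rose by 0.49 without Dox (adjusted p = 0.000383) and by 0.50 with Dox (adjusted p = 0.000441), or 0.34 and 0.41 after median-ratio scaling. Tet3 rose by 0.39 (adjusted p = 0.00538) and 0.43 (adjusted p = 0.00374), or 0.24 and 0.34 after that scaling. Tet1 fell by 0.41 without Dox (adjusted p = 0.000352) and by 0.24 with Dox (adjusted p = 0.0191).

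The stem cell list in D395A XX was at 1313 to 1396 CPM with dTAG against 1730 to 1739 untreated, and at 1299 to 1416 with dTAG and Dox against 1528 to 1742 with Dox. The list for cells leaving the stem cell state was also lower without Dox, at 48.6 to 53.2 CPM against 56.1 to 75.8, and overlapped with Dox. The feeder list was at 393 to 434 CPM against 491 to 596 without Dox and overlapped with Dox. Their part in these changes was not tested.

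**Figure D4:**
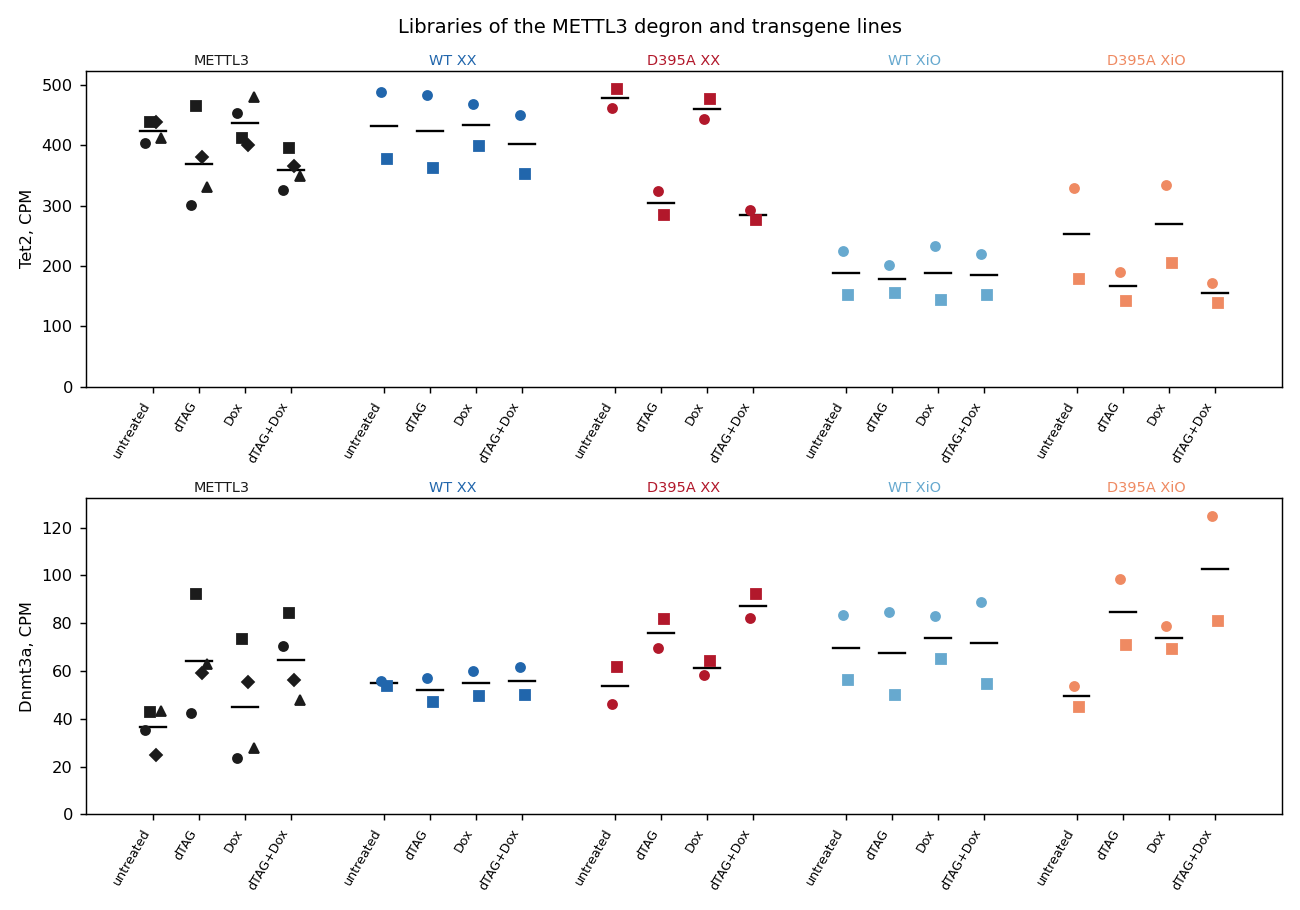
CPM of Tet2 and Dnmt3a in each library of the METTL3 degron line and the 4 transgene lines by treatment. For METTL3 circles are C3, squares G4, diamonds H1 and triangles H5, and for transgenes circles are experiment 1 and squares experiment 2. Tet2 in D395A XX lies between 276.8 and 323.3 in the libraries with dTAG and between 443.2 and 493.5 in those without.

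In WT XX, Tet2 was at 487.5 and 376.9 CPM untreated, 483.1 and 362.5 with dTAG, 468.2 and 398 with Dox and 450.2 and 352.2 with both, with log2 changes of -0.03 and -0.12. The clones of this line and of D395A XX are single, so the transgene and the clone cannot be told apart. The difference in change between D395A XX and WT XX was -0.62 without Dox (adjusted p = 0.425) and -0.57 with Dox (adjusted p = 0.61). None of the 8 members was called for it by limma without a block or by edgeR, with 2 and 1 at an unadjusted p under 0.05, and of all genes 0.00748% and 0.015% were called. In XiO the difference for Tet2 was -0.50 and -0.75, with 0 of 8 members called by either tool (1 and 0 at an unadjusted p under 0.05) and 0% of all genes by limma, with 622 and 512 at an unadjusted p under 0.05.

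Once experiments were blocked, the change differed between D395A XX and WT XX for 3 of 8 members without Dox, against 16.3% of all genes, and for 3 of 8 with Dox, against 12.1%. They were Tet2 (adjusted p = 0.00112 and 0.00239) and Dnmt3a (0.58 and 0.48, adjusted p = 0.0049 and 0.0173) in both settings, Tet1 without Dox (-0.42, adjusted p = 0.0102) and Dnmt1 with Dox (-0.39, adjusted p = 0.0303). Between D395A XiO and WT XiO 3 of 8 differed without Dox, against 14.1% of all genes, and 1 of 8 with Dox, against 9.3%. Those without Dox were Dnmt3a (0.82, adjusted p = 0.00481), Tet3 (0.71, adjusted p = 0.0312) and Dnmt1 (-0.34, adjusted p = 0.013), and the one with Dox was Tet2 (adjusted p = 0.0131).

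In the D395A XiO line 0 of 8 members were called by limma without a block or by edgeR, with 3 and 1 below an unadjusted p of 0.05, against 0.402% of all genes without Dox and 0.0521% with Dox. Tet2 was at 328.6 and 178.1 CPM untreated, 190.5 and 141.6 with dTAG, 333.3 and 204.3 with Dox and 171.9 and 138.7 with both. Both experiments were lower with dTAG in each setting, although the experiments themselves differed as much (log2 changes -0.56 and -0.75). Dnmt3a was at 53.9 and 45.06 untreated, 98.33 and 70.82 with dTAG, 78.86 and 69.18 with Dox and 124.7 and 80.87 with both. Its log2 changes were 0.75 and 0.44, and in D395A XX 0.49 and 0.50, none past the threshold without a block.

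In the blocked fit 4 of 8 members were called in D395A XiO without Dox, against 34.4% of all genes, and 4 of 8 with Dox, against 31.1%. Tet2 fell in both settings (adjusted p = 0.0024 and 0.000475) and Dnmt3a rose in both (adjusted p = 0.000282 and 0.00865). Tet3 rose by 0.58 and 0.54 (adjusted p = 0.00677 and 0.0116), and Dnmt1 fell by 0.26 and 0.24 (adjusted p = 0.00262 and 0.00535). The median-ratio values of these genes kept their direction in both D395A lines.

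In the WT lines 0 of 8 members were called with dTAG by limma or edgeR and 0% of all genes by limma, with or without the block. At an unadjusted p under 0.05 there were, without the block, 0 of 8 members in WT XX and 1 and 0 of 8 in WT XiO, and 14 to 39 of all genes in each comparison, and with it 0 or 1 of 8 members and 312 to 950 of all genes. Their member changes lay between -0.37 (Dnmt3b, WT XiO) and 0.22 (Dnmt3l, WT XiO).

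ZFC3H1 depletion left 0 of 8 members called by limma or edgeR in either setting, against 2.15% of all genes without Dox and 3.15% with Dox, with 3 and 2 at an unadjusted p under 0.05. The widest changes were those of Dnmt3l without Dox, from 61.81 CPM in 8H and 64.88 in 11A to 41 and 55.51 (-0.40, adjusted p = 0.129), and of Tet1, from 1606 and 1448 to 1365 and 1085 (-0.32, adjusted p = 0.082). Uhrf1 went from 102.4 and 94.69 to 82.58 and 87.6 (-0.21, adjusted p = 0.256). Each was lower in both clones without overlap of the groups. With Dox the changes of these genes were -0.19, -0.25 and -0.13. Dnmt1 did not pass either, at 0.06 and 0.05.

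No member differed between the dTAG change with Dox and without Dox in any line by limma or by edgeR, and 2 members in ZCCHC8 and 0 in the other lines had an unadjusted p under 0.05. Beside the ZCCHC8 value given above, 0.00722% of all genes were called for this difference in the first YTHDC1 experiment, 0.0219% in the second and 0% in the METTL3, ZFC3H1 and transgene lines, where 10 to 519 genes had an unadjusted p under 0.05. A member called in only a single setting is therefore not shown to respond differently with Xist induced.

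Dox alone was compared with untreated cells. Every line carries the inducible Xist, so effects of the drug itself and of Xist RNA cannot be told apart. Dnmt3b rose in both YTHDC1 experiments and in ZCCHC8. In the first YTHDC1 experiment it went from 173.1 CPM in Y9F and 149 in Y12H to 215.3 and 230.1 (log2 change 0.47, SE 0.07, adjusted p = 0.000121, limma). In the second it went from 205.7 and 192.4 to 273.8 and 242.6 (0.37, SE 0.06, adjusted p = 0.000334, limma). In ZCCHC8 it went from 155.6 in Z4F and 117.5 in Z12H to 221.7 and 155.2 (0.45, SE 0.07, adjusted p = 0.000178, limma), where the groups overlapped by a narrow margin and both clones rose. The call was kept without either ZCCHC8 clone (0.40 and 0.51) and lost in the first YTHDC1 experiment without Y12H (0.31, adjusted p = 0.072). Without the clone as a block none of these calls was left.

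In the lines with the inducible Xist on the Cast allele Dnmt3b was not called with Dox, unless the experiment was a block in the transgene lines. It went from 132 and 144.4 CPM to 183 and 170.7 in WT XX and from 135.5 and 189.6 to 185.5 and 200.5 in D395A XX. With the block the rise in WT XX passed (0.35, adjusted p = 0.0397) and the change in D395A XX did not (0.26, adjusted p = 0.11). In WT XiO it went the other way, from 338.3 and 294.5 to 216.2 and 211.3 (-0.56, adjusted p = 0.256, or 0.00063 with the block), and in D395A XiO from 146.3 and 195.9 to 145 and 174.2. In ZFC3H1 the clones parted, with 8H at 367.4 and then 325.5 and 11A at 246 and then 307. In METTL3, G4 went from 120.6 to 172.7 and H1 from 93.01 to 176.4, while C3 went from 138.3 to 128.9 and H5 from 124.6 to 113.2. The allele, the stem-loop array in Xist, the parental line and the experiment cannot be told apart here.

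**Figure D5:**
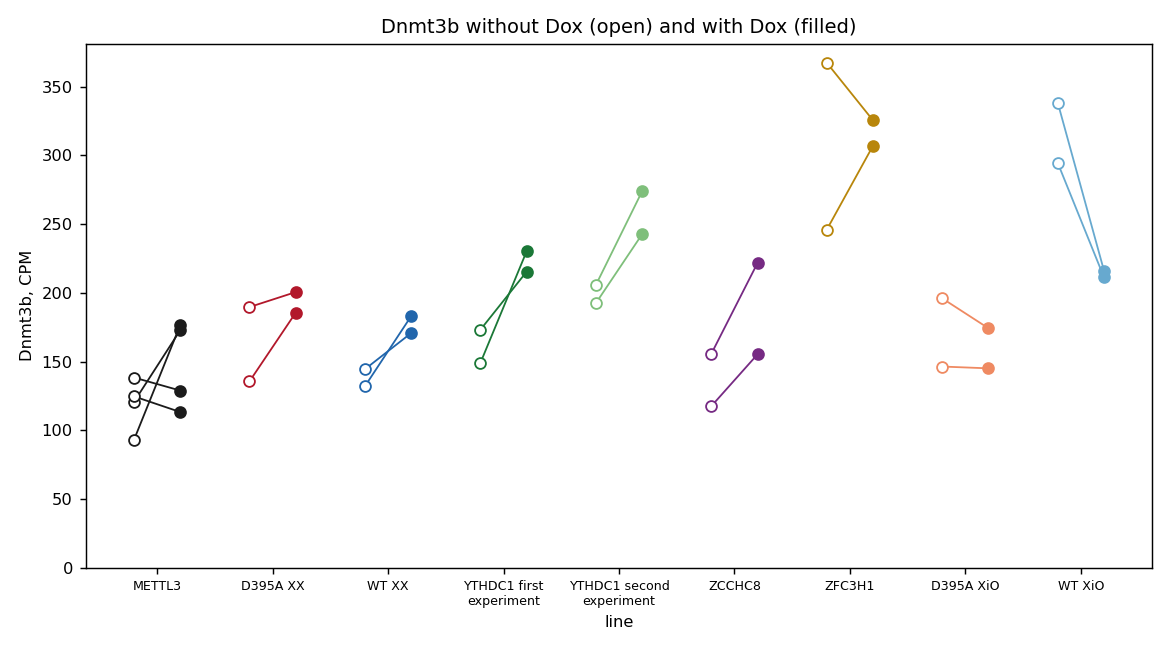
CPM of Dnmt3b untreated (open) and with Dox (filled) in each line, with lines joining the libraries of a clone or of an experiment. Both clones were higher with Dox in each YTHDC1 experiment and in ZCCHC8, and both experiments were lower in WT XiO.

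Other members changed with Dox in single experiments. In the first YTHDC1 experiment Dnmt3a rose from 71.86 and 57.32 CPM to 77.69 and 75.38 (0.25, adjusted p = 0.0319) and Tet1 from 915.7 and 869.2 to 954.7 and 1118 (0.21, adjusted p = 0.0456), and both calls were lost without Y12H (0.11 and 0.06). Without Y9F they were 0.39 and 0.36. In the second, Tet3 fell from 36.66 and 34.64 to 26.1 and 25.2 (-0.46, adjusted p = 0.000826) and Dnmt3l from 56.32 and 59.29 to 44.36 and 52.65 (-0.25, adjusted p = 0.0427). In the first experiment Tet3 was at -0.12 and Dnmt3l at 0.05, neither called, so these changes did not recur in the same clones. Without Y9F in the second experiment Dnmt3l was at -0.17, with no test possible.

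With Dox, 3 of 8 members were called in the first YTHDC1 experiment, against 12.6% of all genes, 3 of 8 in the second, against 10%, and 1 of 8 in ZCCHC8, against 10.9%. Of all calls 46.9%, 34.5% and 43.8% were higher, and 35.2% in the first YTHDC1 experiment and 30.1% in ZCCHC8 after median-ratio scaling. By limma without a block in the transgene lines and by edgeR 0 of 8 were called in METTL3 (0.778% of all genes), D395A XX (0.232%), WT XX (0.00748%), D395A XiO (0.58%), WT XiO (1.17%) and ZFC3H1 (1.11%), with an unadjusted p under 0.05 for 1 member in METTL3, 1 in WT XiO and 3 in ZFC3H1. With the experiment as a block 1 of 8 was called in WT XX and in WT XiO (Dnmt3b in each, against 3.18% and 12% of all genes) and in D395A XiO (against 7.8%), where Dnmt3a rose by 0.57 (adjusted p = 0.00455). In D395A XX 0 of 8 passed with the block, against 5.86%, with 3 at an unadjusted p under 0.05.

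Tet1 also varied between experiments of the same clones. In the first YTHDC1 experiment Y9F was at 880.1 to 980.2 CPM and Y12H at 869.2 to 1118 over the 4 treatments. In the second Y12H was at 854.1 to 986.2 and Y9F at 1601 to 1822. The tables were normalised separately, but within the second table the clones do not overlap at any treatment.

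Genes that act with the members were taken from 6 lists, described by counts and medians. Among 15 germline genes known as sensitive to loss of DNA methylation, the promoters of which are methylated in most cells, 7 of the 14 tested rose on ZCCHC8 depletion without Dox and 10 rose and 1 fell with Dox, with medians of 0.31 and 0.48 against -0.01 and 0.04 over all genes. Over all 13857 genes tested there, 2756 rose and 2240 fell without Dox and 3490 rose and 2108 fell with Dox. On YTHDC1 depletion 4 and 6 of 14 rose in the first experiment and 4 and 5 of 13 in the second, none fell, and the medians were 0.11 to 0.22 against -0.02 to 0.02. Over all genes 1463 and 1363 of 13857 rose in the first experiment and 1144 and 1142 of 13722 in the second. On METTL3 depletion 6 of 13 rose and 1 fell without Dox, and 2 rose and 1 fell with Dox, with medians of 0.47 and 0.35 against 0.21 and 0.23, and of 0.26 and 0.10 against -0.02 and -0.02 after median-ratio scaling. Over all 13367 genes there, 2260 rose and 848 fell without Dox and 1149 rose and 259 fell with Dox. In D395A XX 2 of 12 rose without Dox and none with Dox, where 649 and 328 of all 13364 genes rose, and none passed in the other lines without a block. In the blocked fit 6 rose and 2 fell without Dox and 5 rose and 3 fell with Dox in D395A XX, where 3746 and 2652 of all genes rose. In D395A XiO it was 5 rose and 1 fell of 9 without Dox and 3 rose with Dox, where 3510 and 3188 of all 13448 genes rose, and none passed in the WT lines. Zfp42 of this list is also a stem cell marker.

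Taf7l, an X-linked TFIID subunit of germ cells, went from 4.51 to 8.03 CPM without Dox in the first YTHDC1 experiment (0.71, adjusted p = 0.00314) and from 2.32 to 4.90 with Dox (0.81). Asz1, a piRNA pathway gene, went from 5.00 to 8.67 CPM without Dox (0.69) and from 4.51 to 8.32 with Dox (0.76). Rpl10l, the testis copy of a ribosomal protein gene, rose in YTHDC1 (0.76 to 0.89 over both experiments and settings) and in METTL3 (1.05 without Dox and 0.95 with Dox). Its group means were low, at 0.891 to 4.60 CPM, and its value is uncertain for that reason. Only unique alignments were counted, so reads that match Rpl10 copies equally are left out. In ZCCHC8 Mael went from 3.48 to 6.79 CPM (0.80) and Tex19.1 from 17.9 to 30.4 (0.74) with Dox, both genes of transposon control in germ cells, and Taf7l rose by 0.61 without Dox. In METTL3 Hormad1, a meiotic chromosome gene, fell by 0.45 without Dox and by 0.58 with Dox.

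Of 10 maintenance partners, 1 rose and 4 fell on ZCCHC8 depletion in each setting, where 36.1% and 40.4% of all genes were called. The medians were -0.12 and -0.03 against -0.01 and 0.04 over all genes. The gene that rose was Dppa3 (0.85 and 0.71), whose protein binds UHRF1 and keeps it off chromatin, from 4.89 to 9.60 CPM without Dox and from 7.32 to 12.6 with Dox. In the YTHDC1 experiments 1 rose in each setting, 2 fell without Dox and 1 with Dox. Among them was Zfp57, a guardian of imprints, with Dox in the second experiment (from 253 to 172 CPM, -0.53). Of all genes, 19% and 17.8% were called without Dox in these experiments and 15.5% and 14.7% with Dox. In METTL3 1 of 10 fell without Dox and none passed with Dox, against 23.3% and 10.5% of all genes called. None passed in the other lines without a block. In the blocked fit 1 rose and 5 fell in D395A XX without Dox and 1 rose and 2 fell with Dox. Of all genes in that line, 37.5% and 29.3% were called. In D395A XiO 4 fell without Dox and 1 rose and 6 fell with Dox, against 34.4% and 31.1% of all genes called. The medians were -0.16 to -0.26 against 0.06 to 0.12 over all genes in these lines.

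Of 8 genes that supply methyl groups or TET cofactors, 4 fell on ZCCHC8 depletion in both settings and none rose, where 36.1% and 40.4% of all genes were called. The medians were -0.17 and -0.18 against -0.01 and 0.04 over all genes. In METTL3 1 fell without Dox, where 23.3% of all genes were called. In the YTHDC1 experiments 2 and 1 fell without Dox and 0 and 1 with Dox. Among them was Idh2, which makes the TET cosubstrate alpha-ketoglutarate (second experiment without Dox, from 72.0 to 52.1 CPM, -0.47). Of all genes, 19% and 17.8% were called without Dox there and 15.5% and 14.7% with Dox. On ZFC3H1 depletion 2 of 8 rose, in a line where no member was called, against 2.15% and 3.15% of all genes. Mat2a, the enzyme that makes S-adenosylmethionine, went from 305 to 528 CPM without Dox (0.81, adjusted p = 0.00448) and from 306 to 567 with Dox (0.90, adjusted p = 0.00228), and Ogt, the X-linked transferase that binds TET proteins, from 665 to 1050 (0.67) and from 630 to 1066 (0.77).

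Of the 14 listed regulators of DNMT and TET genes, Nsd2 was not matched by symbol. Of the 13 tested, 5 rose and 1 fell in the first YTHDC1 experiment without Dox and 4 rose and 1 fell with Dox. In the second experiment 3 rose and 1 fell in each setting. Of all genes, 19% and 15.5% were called in the first experiment and 17.8% and 14.7% in the second. On ZCCHC8 depletion 1 rose and 5 fell without Dox, and 2 rose and 3 fell with Dox, with medians of -0.13 and -0.07 against -0.01 and 0.04 over all genes, of which 36.1% and 40.4% were called. In METTL3 2 rose and in ZFC3H1 1 fell, both without Dox, where 23.3% and 2.15% of all genes were called. Cxxc4, whose protein binds TET2, rose in ZCCHC8 by 0.67 without Dox, from 1.52 to 3.01 CPM. At so low a level its value is uncertain. Setdb1, a histone methyltransferase, rose in D395A XX by 0.44 and 0.49. After median-ratio scaling Setdb1 was at 0.28 (adjusted p = 0.125) and 0.40 (adjusted p = 0.0541), neither called, and with the experiment as a block its adjusted p was 9.12e-05 and 4.75e-05. Of 10 methyl-CpG readers, 3 and 2 rose in the first YTHDC1 experiment, 1 rose and 2 fell and then 1 fell in the second, and in ZCCHC8 1 rose without Dox and 2 rose and 3 fell with Dox (medians -0.11 and -0.03 against -0.01 and 0.04 over all genes). In METTL3 1 rose and 2 fell without Dox, and 1 fell with Dox. Of the base excision repair genes, 4 of 11 rose in METTL3 without Dox and 1 with Dox, with medians of 0.50 and 0.48 against 0.21 and 0.23 over all genes, of which 23.3% and 10.5% were called. After median-ratio scaling the medians were 0.24 and 0.21. Smug1, a uracil glycosylase, was called in both (0.67 and 0.71), and after that scaling without Dox (0.45, adjusted p = 0.0355) but not with Dox (0.48, adjusted p = 0.0518). In ZCCHC8 2 rose and 4 fell without Dox and 3 rose and 2 fell with Dox, with medians of -0.08 and 0.06 against -0.01 and 0.04. In the blocked fit 0 to 5 genes of each of the lists of readers, methyl donors, regulators and base excision repair passed in a direction with dTAG in the D395A lines, and none in the WT lines. Of all genes in the D395A lines, 29.3% to 37.5% were called in that fit.

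Several listed genes lie on the X chromosome, where Xist acts. Dusp9, a phosphatase linked to lower methylation in cells with both X chromosomes active, fell with Dox in the first YTHDC1 experiment from 7.64 to 4.17 CPM (-0.73, adjusted p = 0.00411) and in the second from 7.26 to 3.31 (-0.96, adjusted p = 0.00012). In ZCCHC8, ZFC3H1 and the transgene lines it was between -0.45 (D395A XX) and -1.0 (ZFC3H1 and D395A XiO), not called without the experiment as a block, and in METTL3 at 0.22. With that block it fell in WT XX (adjusted p = 0.0282), WT XiO (adjusted p = 0.0136) and D395A XiO (adjusted p = 0.00203). The other X-linked regulator of this kind, Klhl13, was called with Dox in no line without that block, and with it fell in all 4 transgene lines, by 0.29 (WT XX) to 0.80 (D395A XX). Both genes were named after their values were seen.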

How the data were processed

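ChrRNA-seq libraries were prepared from mES cells of 5 degron experiments and 4 transgene lines. The deposited tables hold CPM per gene, scaled by library size by the authors with edgeR. Upstream, the authors used bowtie2 to remove rRNA and STAR for alignment to mm10 with strain variants masked. Only unique alignments were counted, by strand and over whole gene spans, with featureCounts. Both alleles are together, and intronic reads are included, so the values weigh long and newly made RNA. The 12 columns that matched no sample of the series were not used.

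All values were whole multiples of a single step per library (100%, within 0.02 of a read), which gave 8.58 to 34.4 M reads per library. Depth covers counting error only, since reads carry no molecular identifiers. None of the 56 replicate pairs was identical (0 pairs), and their chi-square was at least 7.60 per degree of freedom.

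The 9 members and all lists were chosen with earlier results of these data known. Genes that averaged 1 CPM or more over a table were tested as log2(CPM + 1) with limma 3.58.1 (lmFit, eBayes with trend) in R 4.3.3, with all libraries of a table in a single fit, two-sided, and Benjamini-Hochberg adjustment over all genes of the table (calls at 0.05). In the degron lines clone entered as a block, since treatments of the same named clone were compared. Libraries of a clone deviated together across genes with a mean r of 0.294 to 0.866, with single METTL3 correlations as low as -0.18. In the transgene lines the same-numbered libraries of a line were taken as a biological replicate. The study's reporting summary states a single batch of cells for the wells of each replicate. These libraries deviated together with a mean r of 0.568 to 0.885. The fits without a block are given first there, and those with the experiment as a block beside each result that the block changes. Without a block, the p-values of the transgene lines measure the spread between experiments with a single clone per line. With the block, the shared level of an experiment is removed, and they measure the spread that is left. In the degron lines they measure how far treatment changes differ between clones. Each spread is estimated over all libraries of a table. Clones of a degron line are separate clones of the same parental cells. Test scripts were tested on simulated data.

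The members were named in every line. Over all lists together, up to 3 genes with the largest change were named per comparison among those called the same way with and without Dox. The most alike autosomal genes were taken at a mean of at least 5 CPM. The alternatives were median-ratio scaling, a pseudocount of 0.1, no filter, edgeR 4.0.16 quasi-likelihood (TMM) on the recovered reads, the fit with the block removed or added, only the libraries of a line, the share of reads in genes under 3 kb as a covariate (METTL3), and leaving out each replicate. Listed starts were 1 base before the RefSeq start in 58.3% of 21161 matched genes, and 1 was added to every start. Promoter sequences came from RefSeq.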

Additional observations from a re-analysis of the deposited data

Results flagged for a closer look

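Within the table that ZCCHC8 shares with the first YTHDC1 experiment, 3 members differed in their dTAG change between both targets by the test of the difference itself (limma). Tet1 differed by -0.29 without Dox (adjusted p = 0.03), with log2 changes of -0.24 in ZCCHC8 and 0.05 in YTHDC1. With Dox, Dnmt3a differed by 0.40 (adjusted p = 0.00835), with changes of 0.30 and -0.09, and Dnmt3b by 0.45 (adjusted p = 0.00184), with changes of 0.32 and -0.12. Dixon's test was run in the 36 combinations of a METTL3 treatment group of 4 libraries and a member. It flagged 0 libraries, where chance gives about 1 in 20. The test looks for a single library apart and cannot flag clones that part in pairs. For Tet1 with dTAG, G4 and H1 parted from C3 and H5 in this way.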

How the results depend on the processing

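Apart from the blocked fits of the transgene lines, the report holds 34 called changes of members, and none of them changed direction under any alternative that was run. The call was kept for 34 with a pseudocount of 0.1, 31 with edgeR on the recovered reads, 30 with median-ratio scaling and 26 without the filter, for 21 of 21 with only the libraries of the line, and for 2 of 2 in METTL3 with the covariate for short genes. Without the clone as a replicate block 4 of 33 calls were kept, namely Dnmt1 and Uhrf1 in ZCCHC8 and Uhrf1 in the first YTHDC1 experiment, all without Dox, and Tet2 in ZCCHC8 with Dox. These 4 were the calls kept under every alternative other than left-out replicates. With a replicate left out the direction was kept in 78 of 78 values and the call in 31 of 62 that have a test. ZFC3H1 and the second YTHDC1 experiment have no residual degrees of freedom then and give values only.

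Counts of members called changed as follows, and the cause was not tested. By edgeR the count went from 2 to 0 in METTL3 without Dox and from 0 to 1 in D395A XX with dTAG and Dox. With median-ratio scaling it went from 2 to 0 in METTL3 without Dox, from 0 to 1 in D395A XX with dTAG and Dox, from 3 to 1 with Dox in the first YTHDC1 experiment, from 2 to 4 for ZCCHC8 minus YTHDC1 with Dox, and from 0 to 1 for the change with Dox minus without Dox over 9 lines. Without the filter it went from 2 to 1 in METTL3 and from 1 to 0 in D395A XX, both with dTAG without Dox, from 2 to 1 in the second YTHDC1 experiment with dTAG and Dox, from 3 to 1 with Dox in the first, and from 1 to 0 for ZCCHC8 minus YTHDC1 without Dox. With only the libraries of the line it went from 0 to 1 in D395A XX with dTAG and Dox.

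Without the clone as a replicate block the counts for dTAG without Dox went from 2 to 0 in METTL3, 3 to 1 and 3 to 0 in the YTHDC1 experiments, and 4 to 2 in ZCCHC8. For dTAG with Dox they went from 2 to 0 in both YTHDC1 experiments and 7 to 1 in ZCCHC8, and for Dox from 3 to 0 in both YTHDC1 experiments and 1 to 0 in ZCCHC8. For ZCCHC8 minus YTHDC1 they went from 1 to 0 without Dox and 2 to 0 with Dox. With the experiment as a replicate block in the transgene lines, where it stands for a batch of cells, the counts for dTAG without Dox went from 1 to 4 in D395A XX and 0 to 4 in D395A XiO, and with Dox from 0 to 4 in both. For Dox they went from 0 to 1 in WT XX, WT XiO and D395A XiO, and for D395A minus WT from 0 to 3 without and with Dox in XX, and from 0 to 3 without and 0 to 1 with Dox in XiO. Residual profiles of libraries with the same number correlated at 0.427 to 0.794 at the lowest in XX and 0.723 to 0.868 in XiO. The block changed no other call.

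With a replicate left out the counts for dTAG without Dox ranged from 0 to 2 in METTL3 and in the first YTHDC1 experiment and from 1 to 3 in ZCCHC8, and were 0 in D395A XX. For dTAG with Dox they ranged from 1 to 2 in the first YTHDC1 experiment and were 4 both times in ZCCHC8. For Dox they ranged from 0 to 3 in the first YTHDC1 experiment, and for ZCCHC8 minus YTHDC1 from 0 to 1 without Dox and from 1 to 2 with Dox. Tdg, at 0.0512 to 0.772 CPM, stayed below the filter of 1 CPM.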

Other observations

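The untreated XiO transgene clones, which share a table, differed in several members. Dnmt3b was at 338.3 and 294.5 CPM in WT XiO and at 146.3 and 195.9 in D395A XiO, Tet1 at 829.8 and 949.7 against 1399 and 1664, and Tet2 at 224.7 and 151.4 against 328.6 and 178.1. The summed level of the stem cell markers was 827 to 967 CPM in WT XiO and 1382 to 2189 in D395A XiO, and that of the markers for cells leaving the stem cell state was 176 to 207 against 54.5 to 64.0. Each line is a single clone, so clone and transgene cannot be told apart, and the difference was not tested.

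ZFC3H1 clones also differed before any treatment. Tet3 was at 39.61 CPM in 8H and 73.37 in 11A, Tet2 at 331.3 and 511.1, and Dnmt3b at 367.4 and 246. Tet3 was higher in 11A than in 8H in all 4 treatments (34.95 against 86.76 with dTAG, 28.84 against 55.08 with Dox, 23.1 against 48.25 with both).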
